A study of Mus musculus with 6 samples.

Results

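The constitutive proteasome genes were compared between parental CT26.mMR1 cells and M8, an ENU mutant of the same mouse colorectal tumor line. The 35 genes were chosen by symbol, out of 24346 symbols in the deposited tables, and every one of them was found. They encode 7 alpha and 4 beta subunits of the core particle, 6 ATPase, 4 base non-ATPase and 8 lid subunits of the regulatory particle, and 6 factors that help to assemble these parts. Parental cells are CT26 cells that overexpress mouse MR1 after retroviral transduction. The sample titles of both lines carry the tag cl9, which the sources used here do not explain. M8 carries the same transgene and is 1 clone obtained by limiting dilution after mutagenesis, picked for its effect on a MAIT cell reporter line and its surface MR1 level, so that the effect of a mutation and the choice of 1 clone cannot be told apart. RNA from 3 biological replicates of each line was sequenced, and the authors deposited FPKM values (fragments counted on a gene, divided by its exon length and by the sequencing depth), in which levels of genes of different length can be compared.

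The proteasome degrades proteins that carry ubiquitin chains and supplies most of the peptides shown on class I molecules. Its core particle is a barrel of stacked rings, with alpha rings at both ends that close the entrance and beta rings inside that hold the cutting sites. The regulatory particle sits on the alpha ring. Its base holds a ring of ATPases that unfold the substrate and open the gate, together with receptors for ubiquitin, and its lid removes the ubiquitin chain. The subunits of a particle are present in fixed proportions, and in mammalian cells their genes are known to be raised together by the transcription factor encoded by Nfe2l1 when proteasome activity is too low.

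The tables summed to between 593635 and 630264 FPKM per replicate. The spacing of the FPKM values of low genes put the depth of parental replicates 2 and 3 at 0.948 and 1.07 relative to parental replicate 1, and that of the M8 replicates at 0.875, 0.772 and 0.845. The M8 libraries were therefore all shallower. Of 8 epithelial markers, only Krt18 and Krt20 reached a mean of 1 FPKM, and Epcam, Cdh1, Krt19 and Cdx2 were listed at 0 in all 6 replicates. All 4 mesenchymal markers were expressed, with a summed level of 2458 to 2889 FPKM in parental cells and 2578 to 2669 FPKM in M8. Single markers differed between the lines, since Fn1 (log2 change -0.35, limma adjusted p = 0.000917) and Krt20 (log2 change -0.50, limma adjusted p = 0.00438) were lower in M8 without overlap, by more than any of the 35 proteasome genes differed. Cdh2 was higher in M8 without overlap (log2 change 0.13, limma adjusted p = 0.0550), and Col1a1 did not overlap either but did not pass (log2 change 0.078, limma adjusted p = 0.188). Their part in the results was not tested. The 5 leukocyte and 2 endothelial markers stayed at or below 0.0524 FPKM in every replicate.

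All 35 genes were expressed in every replicate and passed the filter on low values, a mean of 1 FPKM over the 6 replicates. The 29 subunit genes lay between the 82.6th and the 97.4th percentile of mean FPKM among the 10597 genes tested. Psmb4 and Psmb1, which encode beta subunits without a cutting site, and Psma7, an alpha subunit, were highest. Psmb4 had 283 ± 3.56 FPKM (parental) and 299.6 ± 11.97 FPKM (M8; SD, n = 3), Psma7 274 ± 9.74 FPKM (parental) and 285 ± 7.44 FPKM (M8; SD, n = 3) and Psmb1 269 ± 3.33 FPKM (parental) and 252 ± 6.15 FPKM (M8; SD, n = 3). In parental cells the standard deviations of Psma7 overlapped with those of both Psmb4 and Psmb1, and in M8 those of Psma7 and Psmb4 overlapped, so the order of these pairs is not settled. The lowest subunit gene was Psmd11, a scaffold protein of the lid, with 50.5 ± 1.23 FPKM (parental) and 52.0 ± 0.954 FPKM (M8; SD, n = 3). Highest and lowest subunit gene differed 5.60-fold in parental cells and 5.76-fold in M8.

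By group, the median parental level was 223 FPKM for the 4 beta subunit genes, 159.7 FPKM for the 7 alpha, 130.1 FPKM for the 6 ATPase, 123 FPKM for the 4 base non-ATPase and 75.6 FPKM for the 8 lid genes. The ATPase genes were the most even group, at 116 to 152 FPKM. The lid genes fell into a lower set, Psmd11, Psmd12, Psmd13, Psmd6 and Psmd3 at 50.5 to 86.0 FPKM, and a higher set, Psmd7, Psmd8 and Psmd14 at 121 to 156 FPKM. The 6 assembly factors, which are not part of the finished particle, were lower as a group, at 21.7 FPKM for Psmd9 to 54.2 FPKM for Psmd5. The order of the 35 genes was nearly the same in both lines, with a Spearman's rho of 0.982 across genes, which share the same libraries.

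**Figure D1:**
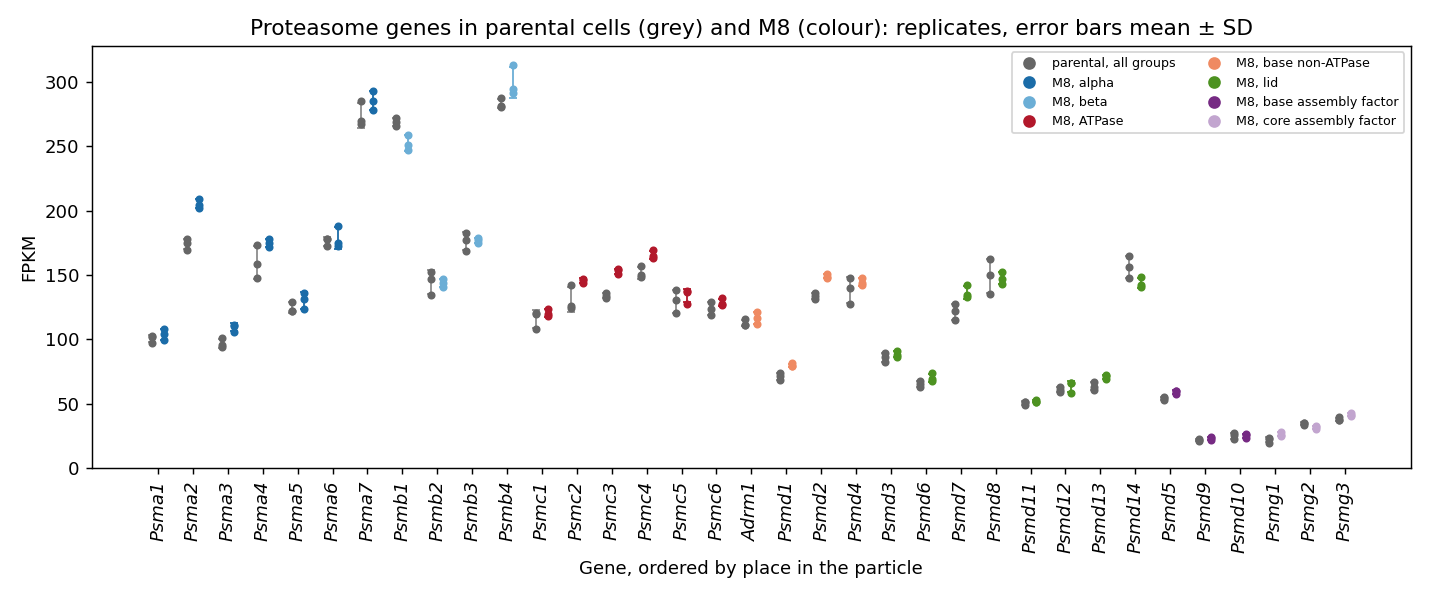
FPKM of each of the 35 genes (vertical axis) in the 3 parental replicates (grey points) and the 3 M8 replicates (coloured by group), with bars for mean ± SD. Psmb4, Psma7 and Psmb1 stand highest and 5 of the 6 assembly factors lowest, with Psmd5 above the lid gene Psmd11.

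Differences between the lines were small. In limma's test on log2(FPKM + 1), adjusted by the Benjamini-Hochberg method over all genes tested and with the study's threshold of 0.1, 12 of the 35 genes were higher in M8, 3 were lower and 20 did not pass. These were 34.3% and 8.57% of the genes, beside 21.2% higher and 16.5% lower among all genes tested. Over the 35 genes, the log2 fold changes had a median of 0.062, against 0.0069 for all genes tested. The largest ratio of M8 to parental mean FPKM was 1.19, and the 12 higher genes had a median ratio of 1.12. A log2 fold change of this kind is a difference in log2(FPKM + 1), M8 minus parental.

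In the values as deposited, strongly expressed genes were in general more often higher in M8. Their shares were not taken under other scalings. Of the 1888 genes with a mean of at least 50 FPKM, a level chosen after the values were seen, 39.8% were higher and 10.1% were lower, and their median on the log2 scale was 0.078. The 30 proteasome genes at this level, 33.3% of them higher and 6.67% lower with a median of 0.061, were close to these shares. The proteasome genes did not exceed the genes of like level in the share called higher. Among the 35 genes, 13 (37.1%) had all 3 M8 values above all parental ones and 2 (5.71%) had them below, beside 24.8% and 20.4% of all genes tested. At a mean of at least 50 FPKM, the values lay above in 36.7% of the proteasome genes and 43.8% of all genes, and below in 3.33% and 13.3%.

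The balance also depended on how the samples were scaled. With values rescaled to TPM, 10 of the 35 genes were higher and 3 lower, beside 15.6% higher and 20.8% lower among all genes tested. With upper-quartile scaling the split was 6 to 3, beside 13.9% higher and 26.1% lower among all genes. With quantile normalization it was 3 to 3, beside 17.2% higher and 16.7% lower, and the median over the 35 genes was -0.030. Psma2, Psmc3 and Psmg1 were higher, and Psmb1, Psmd14 and Psmg2 lower, under all 4 scalings tried. Single libraries mattered as well, since 7 genes were higher without M8 replicate 2, and the lower genes came to 0 when M8 replicate 1 or 2 was left out (limma, with 2 and 1 at an unadjusted p below 0.05) and to 1 when any other replicate was. Psma2, Psma3, Psmc3, Psmd1 and Psmd2 passed in each of the 6 fits with 1 replicate left out. In these bulk samples, a change in the RNA content of a cell and a change in the mix of cells cannot be told apart.

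**Figure D2:**
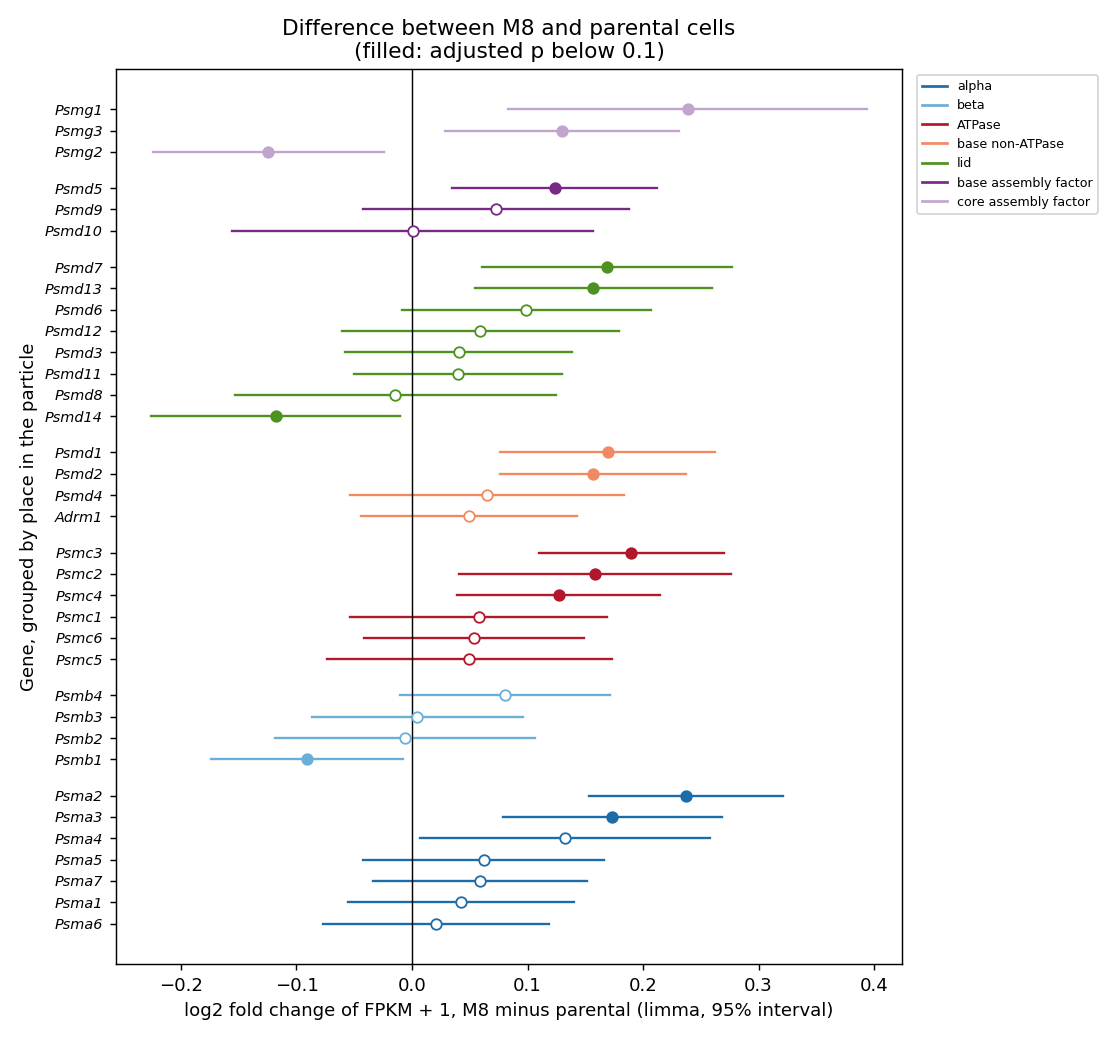
Log2 fold change of FPKM + 1, M8 minus parental (horizontal axis), with the 95% interval of limma's fit for each of the 35 genes, grouped by place in the particle. Filled points passed an adjusted p of 0.1, 12 to the right of 0 and 3 to the left, of which 3 and 3 also passed with quantile normalization.

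Among the alpha subunit genes, which form the gate of the core particle, Psma2 and Psma3 rose in M8 and the other 5 did not pass. Psma2 had 169.5, 178 and 175 FPKM in parental replicates 1 to 3 and 209, 202 and 204 FPKM in M8 replicates 1 to 3. No parental value reached the lowest M8 value (log2 change 0.24 ± 0.037 (SE), adjusted p = 0.00236 by limma). The gene lies on chromosome 13 from 14613242 to 14625673 in GRCm38, as annotated by RefSeq. Psma3 had 95.3, 101 and 94.3 FPKM (parental) and 111, 106 and 111 FPKM (M8), again without overlap (log2 change 0.17 ± 0.042 (SE), adjusted p = 0.0151 by limma), and did not pass with quantile normalization. Psma4 came close, with 158, 147 and 173 FPKM (parental) and 172, 178 and 175 FPKM (M8), where parental replicate 3 exceeded M8 replicate 1 (log2 change 0.13 ± 0.056 (SE), adjusted p = 0.105 by limma). It passed without parental replicate 3 and with a filter at a mean of 5 FPKM. Psma1, Psma5, Psma6 and Psma7 had log2 fold changes of 0.021 to 0.062 with overlapping replicates and limma adjusted p-values of 0.313 to 0.7504. Their 95% intervals together ran from -0.077 to 0.17. The median of the 7 genes was 0.062, and -0.032 with quantile normalization.

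The beta subunit genes without a cutting site showed no common direction (median -0.000579 on the log2 scale, 4 genes), and this median was above 0 with median centring (0.000232) and below 0 with the other scalings. Psmb1 was the only one to pass, and it fell. It had 269, 272 and 265 FPKM (parental) and 259, 247 and 251 FPKM (M8), with every M8 value below every parental value (log2 change -0.091 ± 0.037 (SE), adjusted p = 0.0947 by limma). This call held under the 4 scalings, and was lost without a trend, with the replicate number as a block and at a threshold of 0.05. Among the fits with 1 replicate left out, it held only without parental replicate 3. Psmb4 had 287, 281 and 281 FPKM (parental) and 291, 313 and 294 FPKM (M8), without overlap in the other direction (log2 change 0.081 ± 0.041 (SE), adjusted p = 0.167 by limma), and it did not pass. Its highest value was in M8 replicate 2, and its sign turned with quantile normalization. Psmb2 had 152, 134 and 147 FPKM (parental) and 147, 141 and 143 FPKM (M8), and Psmb3 177, 169 and 183 FPKM (parental) and 175, 177 and 179 FPKM (M8). Psmb2 and Psmb3, at log2 fold changes of -0.0059 and 0.00469, overlapped between the lines (95% intervals -0.12 to 0.11 and -0.086 to 0.10).

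The ATPase genes encode the ring that unfolds the substrate. Psmc2, Psmc3 and Psmc4 rose, and Psmc1, Psmc5 and Psmc6 did not pass. Psmc3, whose product has a C-terminal tail that docks into the alpha ring and helps to open it, rose most. It had 134, 132 and 136 FPKM in parental replicates 1 to 3 and 155, 154 and 151 FPKM in M8 replicates 1 to 3, without overlap (log2 change 0.19 ± 0.036 (SE), adjusted p = 0.00492 by limma), and passed under all 17 alternatives. Psmc4 had 148, 149.7 and 157 FPKM (parental) and 165, 169 and 163 FPKM (M8) (log2 change 0.13 ± 0.039 (SE), adjusted p = 0.0380 by limma), and Psmc2 had 126, 124 and 142 FPKM (parental) and 147, 146 and 144 FPKM (M8) (log2 change 0.16 ± 0.052 (SE), adjusted p = 0.0493 by limma). In Psmc2 the parental replicates were uneven, with replicate 3 near the M8 values, and the call was lost without parental replicate 1 or 2 and without M8 replicate 1 or 2. It passed without parental replicate 3 or M8 replicate 3, and not without the filter on low values. Psmc4 lost its call without M8 replicate 2, and both lost it with upper-quartile scaling and quantile normalization. Psmc1, Psmc5 and Psmc6 had log2 fold changes of 0.050 to 0.058 and limma adjusted p-values of 0.373 to 0.526. The median of the 6 genes was 0.092, and -0.00320 with quantile normalization.

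Of the base non-ATPase genes, Psmd1 and Psmd2 rose. They encode the largest proteins of the particle, scaffolds that hold ubiquitin receptors and the shuttle proteins that bring substrates. Psmd2 had 131, 134 and 136 FPKM in parental replicates 1 to 3 and 151, 148 and 149 FPKM in M8 replicates 1 to 3 (log2 change 0.16 ± 0.036 (SE), adjusted p = 0.0114 by limma). Psmd1 had 68.2, 73.4 and 71.4 FPKM (parental) and 81.3, 78.9 and 79.6 FPKM (M8) (log2 change 0.17 ± 0.041 (SE), adjusted p = 0.0152 by limma). In both genes the replicates of a line lay close together and did not overlap with the other line, and both failed to pass only with quantile normalization. The ubiquitin receptor genes Psmd4 and Adrm1 had log2 fold changes of 0.065 (95% interval -0.053 to 0.18) and 0.050 (95% interval -0.044 to 0.14) and overlapped. Psmd4 had 128, 140.0 and 147 FPKM (parental) and 148, 144 and 142 FPKM (M8), with parental replicate 1 the lowest. Adrm1 had 111, 116 and 111 FPKM (parental) and 121, 117 and 112 FPKM (M8). The median of the 4 genes was 0.11, and it was nearest 0 at 0.019 with quantile normalization. All 10 genes of the base had a log2 fold change above 0 in the values as deposited, but Psmc1, Psmc5, Psmc6, Psmd4 and Adrm1 were below 0 with quantile normalization, and all of these except Psmd4 also with upper-quartile scaling.

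The lid genes moved in both directions. Psmd7 and Psmd13 rose, Psmd14 fell and the other 5 did not pass. Psmd14 encodes the metalloprotease that cuts the ubiquitin chain off the substrate, and Psmd7 the related protein without a catalytic site with which it is paired. Psmd7 had 122, 115 and 127 FPKM in parental replicates 1 to 3 and 134, 142 and 133 FPKM in M8 replicates 1 to 3 (log2 change 0.17 ± 0.048 (SE), adjusted p = 0.0285 by limma). Psmd14 had 147, 156 and 165 FPKM (parental) and 148, 142 and 140.4 FPKM (M8) (log2 change -0.12 ± 0.048 (SE), adjusted p = 0.0942 by limma). The 2 partners thus had fold changes of opposite sign, with intervals of 0.061 to 0.28 and -0.23 to -0.011. For Psmd14 the groups overlapped, since M8 replicate 1 was above parental replicate 1, and the call was lost in 5 of the 6 fits with 1 replicate left out, remaining only without parental replicate 1. It was also lost without the filter, without a trend, with the replicate number as a block and at a threshold of 0.05. Psmd7 kept its call except without M8 replicate 2 and with quantile and upper-quartile scaling.

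Psmd13, a scaffold protein of the lid, had 62.8, 60.8 and 66.9 FPKM (parental) and 72.0, 71.7 and 69.0 FPKM (M8), without overlap (log2 change 0.16 ± 0.046 (SE), adjusted p = 0.0311 by limma), and did not pass without M8 replicate 1 or with quantile or upper-quartile scaling. Psmd6 had 65.5, 62.7 and 67.7 FPKM (parental) and 73.8, 68.8 and 67.5 FPKM (M8), where M8 replicate 3 fell among the parental values (log2 change 0.10 ± 0.048 (SE), adjusted p = 0.152 by limma). Psmd3, Psmd11, Psmd12 and Psmd8 had log2 fold changes of 0.040, 0.040, 0.059 and -0.014, with limma adjusted p-values of 0.436 to 0.881. Psmd8 was the most variable gene in parental cells, from 135 FPKM in replicate 1 to 162 FPKM in replicate 3. The median of the 8 lid genes was 0.050, and it was -0.011 with upper-quartile scaling and -0.024 with quantile normalization. Without M8 replicate 3 it was 0.085, and without parental replicate 3 it was 0.076.

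The assembly factors for the core particle moved in both directions. Psmg1 and Psmg2 encode the partners of a dimer on which the alpha ring is built, and Psmg3 belongs to a second such dimer. Psmg1 had 22.7, 23.5 and 19.8 FPKM in parental replicates 1 to 3 and 25.04, 25.3 and 27.8 FPKM in M8 replicates 1 to 3 (log2 change 0.24 ± 0.069 (SE), adjusted p = 0.0302 by limma). Psmg2 had 35.3, 33.4 and 34.8 FPKM (parental) and 30.5, 31.8 and 32.5 FPKM (M8) (log2 change -0.12 ± 0.045 (SE), adjusted p = 0.0647 by limma). In neither gene did the lines overlap, and Psmg1 rose while Psmg2 fell under the values as deposited and under the 4 scalings. Psmg1 did not pass without M8 replicate 3. Psmg2 did not pass without parental replicate 1 or 3 or without M8 replicate 1 or 2. Psmg3 had 37.3, 36.9 and 39.3 FPKM (parental) and 41.5, 42.9 and 40.1 FPKM (M8), without overlap (log2 change 0.13 ± 0.045 (SE), adjusted p = 0.0585 by limma), and did not pass with TPM, quantile or upper-quartile scaling or without parental replicate 1 or 2 or M8 replicate 1 or 2. Of the factors that build the ATPase ring, Psmd5 rose, with 53.2, 55.3 and 54.0 FPKM (parental) and 57.6, 59.7 and 60.1 FPKM (M8) (log2 change 0.12 ± 0.040 (SE), adjusted p = 0.0441 by limma), and lost its call with the same 3 scalings and without M8 replicate 2 or 3. Psmd9, the lowest of the 35 genes, had 21.4, 20.9 and 22.7 FPKM (parental) and 23.7, 21.9 and 22.9 FPKM (M8), and Psmd10 had 26.9, 22.7 and 25.5 FPKM (parental) and 26.3, 25.6 and 23.1 FPKM (M8). Both overlapped and did not pass, at log2 fold changes of 0.072 (95% interval -0.043 to 0.19) and 0.000768 (95% interval -0.16 to 0.16). The exact two-sided permutation test gave p = 0.1 for each of the 15 genes without overlap, the smallest p that 3 replicates against 3 allow.

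Seen by replicate, the median over the 35 genes of log2(FPKM + 1) minus the parental mean was -0.016, -0.019 and 0.048 in parental replicates 1 to 3 and 0.10, 0.079 and 0.069 in M8 replicates 1 to 3. Every M8 replicate was above every parental replicate, and parental replicate 3 was the nearest. By group, alpha, ATPase, base non-ATPase and assembly factor genes showed the same lack of overlap, whereas beta and lid genes overlapped. These medians are of values as deposited and were not taken for other genes of like level. Of all genes with a mean of at least 50 FPKM, 43.8% had every M8 value above every parental value. Together the 35 genes made up 0.692, 0.669 and 0.684% of all FPKM in the parental replicates and 0.700, 0.697 and 0.696% in the M8 replicates, a share that is not changed by multiplying all values of a replicate. All 3 M8 shares exceeded the parental ones, by little over parental replicate 1.

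**Figure D3:**
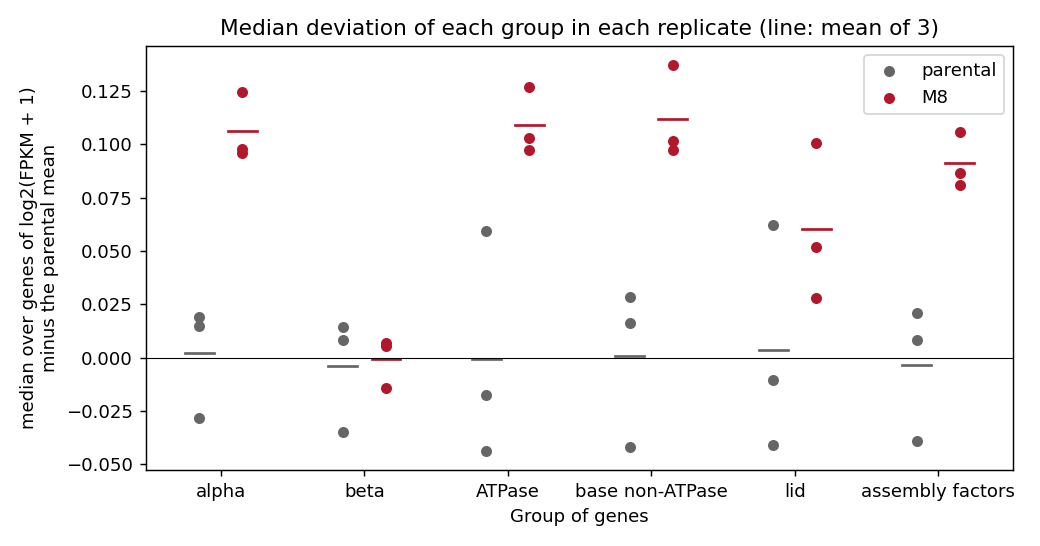
Median over the genes of each group of log2(FPKM + 1) minus the parental mean (vertical axis) in each of the 3 parental (grey) and 3 M8 (red) replicates as deposited, with a line at the mean of 3. The M8 replicates lie apart from the parental ones in 4 groups, with the beta subunits at about 0 in both lines and the lid replicates overlapping, and with quantile normalization the alpha and ATPase medians fell below 0.

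The other genes of the pathway were taken from a list of 41, of which 38 were tested. Of these, 13 were higher in M8, 4 were lower and 21 did not pass, beside 21.2% higher and 16.5% lower among all genes tested. Their median parental level was 60.2 FPKM. Among all genes with a mean of at least 50 FPKM, 39.8% were higher and 10.1% were lower. On the log2 scale, the median of the 38 pathway genes was 0.068, beside 0.078 for the genes of at least 50 FPKM. The 3 cutting subunits of the constitutive core were split. Psmb5, the chymotrypsin-like subunit, had 158, 157 and 157 FPKM (parental) and 187, 186 and 174 FPKM (M8) (log2 change 0.21 ± 0.040 (SE), adjusted p = 0.00509 by limma), without overlap. Psmb6 and Psmb7 did not pass, at log2 fold changes of 0.0067 (95% interval -0.13 to 0.14) and 0.060 (95% interval -0.053 to 0.17). Of their interferon-inducible counterparts, Psmb8 rose from 26.7 to 32.8 FPKM and Psmb10 from 15.5 to 27.9 FPKM, and Psmb9 did not pass (log2 fold change 0.054).

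The activators that can take the place of the regulatory particle included larger log2 changes than any of the 35 genes. Psme1 and Psme2, the subunits of an interferon-inducible activator, had log2 fold changes of 0.41 and 0.25 (limma adjusted p = 0.00215 and 0.00355). Psme1 had 139, 154 and 168 FPKM in parental replicates 1 to 3 and 205, 205 and 199 FPKM in M8 replicates 1 to 3. Psme3, the nuclear relative, rose less (log2 change 0.13 ± 0.040 (SE), adjusted p = 0.0325 by limma), and Psme4, a large nuclear activator, fell (log2 change -0.27 ± 0.056 (SE), adjusted p = 0.00741 by limma). Pomp, Psmg4 and Ecpas, which act in the assembly or stability of the particle, were all higher, with log2 fold changes of 0.16, 0.23 and 0.10. Psmg4 is the partner of Psmg3. Uchl5, the deubiquitinase bound by the receptor Adrm1, rose (log2 change 0.28 ± 0.066 (SE), adjusted p = 0.0134 by limma), as did the ubiquitin-activating enzyme gene Uba1 (0.26), the shuttle gene Rad23b (0.20) and the unfoldase gene Vcp (0.12). Rps27a, which encodes ubiquitin fused to a ribosomal protein, fell (log2 change -0.16 ± 0.046 (SE), adjusted p = 0.0255 by limma). Psmb5, Psmb8, Psmb10, Psme1, Psme2, Psme4, Psmg4, Uchl5, Rad23b, Uba1 and Rps27a passed under all 17 alternatives. Psme3, Pomp, Ecpas and Vcp lost their calls with quantile and upper-quartile scaling and without M8 replicate 2. Pomp, Ecpas and Vcp (limma adjusted p = 0.0506, 0.0789 and 0.0616) also lost theirs at a threshold of 0.05. Psme3, Ecpas and Vcp also lost it with TPM, Ecpas and Vcp without a trend, and Pomp without the filter on low values. Ecpas also lost it without any one of the other replicates, Vcp without parental replicate 1 or M8 replicate 1 or 3, Pomp without parental replicate 1 or 2 and Psme3 without parental replicate 2.

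Nfe2l1, which encodes the factor that induces the proteasome genes, was lower in M8. It had 105, 109 and 111 FPKM (parental) and 100.3, 101 and 98.6 FPKM (M8), without overlap (log2 change -0.11 ± 0.038 (SE), adjusted p = 0.0502 by limma). The call held under the 4 scalings, and of the fits with 1 replicate left out it was kept only without parental replicate 1. The genes for the protease and the N-glycanase that process this factor, Ddi2 and Ngly1, did not pass, at log2 fold changes of -0.080 (95% interval -0.19 to 0.032) and 0.20 (95% interval 0.000707 to 0.41), and neither did the related factor gene Nfe2l2 (0.065, 95% interval -0.029 to 0.16). The mRNA level does not show the amount of active factor, which is controlled at the protein.

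The promoters of the genes were compared by short sequence motifs, since the choice of the genes did not use sequence. RefSeq windows of 300 bases in GRCm38.p6, from 250 before to 50 after an annotated start, were at hand for 29 of the 35 genes, 31 windows in all. Psmb1, Psmb2, Psmc3, Psmd3, Psmd7 and Psmg2 had no entry. Both strands were searched for 3 motifs, whose matches may overlap. CCGGAAG, the core of sites bound by ETS family factors, was present in 14 of 31 windows (45.2%), beside 19.1% of 10401 windows of genes tested and 8.9% of all 32851 windows. Among windows of genes tested with a GC content within the middle range of the proteasome windows, 53.3% to 64.3%, the share was 22.2%. It was found in 4 of 6 ATPase windows, 3 of 4 base non-ATPase windows and 4 of 6 lid windows, but in 1 of 8 alpha windows. The ATPase windows with a match include both annotated starts of Psmc2, and the alpha window is at a later start of Psma6. By gene, 13 of 29 had a match. CCAAT was present in 38.7% of the windows and 38.3% of those of genes tested, with 5 of 8 alpha windows. TGACNNNGC, the core of the antioxidant response element that the Nfe2l1 product can bind, was in 4 windows (12.9%), beside 14.5% of those of genes tested.

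The CCGGAAG matches are shown for 2 genes that rose, Psmc2 and Psmg1, and for 2 lid genes that did not pass, Psmd6 and Psmd11, each with up to 25 bases on either side and read along the strand of the gene. Capitals mark the motif, which is written as CTTCCGG where it lies on the other strand.
Psmc2, chr5:21785166-21785222, plus strand: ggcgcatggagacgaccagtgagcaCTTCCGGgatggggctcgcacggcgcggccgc
Psmg1, chr16:95990998-95991054, minus strand: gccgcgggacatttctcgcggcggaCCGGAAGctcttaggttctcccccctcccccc
Psmd6, chr14:14120959-14121015, minus strand: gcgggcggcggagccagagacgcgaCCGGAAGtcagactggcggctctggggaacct
Psmd11, chr11:80428579-80428614, plus strand: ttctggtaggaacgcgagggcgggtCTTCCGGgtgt
The motif began at -84 in Psmc2, -69 in Psmg1, -45 in Psmd6 and -11 in Psmd11, counted from the annotated start, which for Psmc2 is the first of 2. It was present in 5 of the 10 higher genes with a window and in 8 of the 18 that did not pass, so that genes with and without it were found among both.

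The 4 genes with a match to TGACNNNGC, Adrm1, Psmc6, Psmd9 and Psmd12, were all among those that did not pass. The match of Adrm1, the ubiquitin receptor gene, is shown in capitals as an example.
Adrm1, chr2:180171401-180171459, plus strand: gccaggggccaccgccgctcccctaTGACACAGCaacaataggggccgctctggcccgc
Psma2, which had the lowest adjusted p of the 35 genes, and the lid gene that fell, Psmd14, are shown over the 250 bases before the start. Capitals mark CCAAT, written as ATTGG on the other strand, the only one of the 3 motifs found in either stretch.
Psma2, chr13:14612992-14613241, plus strand: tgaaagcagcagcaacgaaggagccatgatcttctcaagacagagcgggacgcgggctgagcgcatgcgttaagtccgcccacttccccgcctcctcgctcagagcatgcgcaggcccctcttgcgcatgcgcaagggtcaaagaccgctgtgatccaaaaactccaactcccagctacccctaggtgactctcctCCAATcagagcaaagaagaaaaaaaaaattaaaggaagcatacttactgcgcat
Psmd14, chr2:61711444-61711693, plus strand: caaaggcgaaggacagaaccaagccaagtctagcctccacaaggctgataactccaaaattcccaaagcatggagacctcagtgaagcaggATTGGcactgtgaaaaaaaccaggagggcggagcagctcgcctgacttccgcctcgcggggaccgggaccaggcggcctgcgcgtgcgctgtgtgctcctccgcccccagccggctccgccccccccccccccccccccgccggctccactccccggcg
A match shows only that the letters are present in the window.

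**Figure D4:**
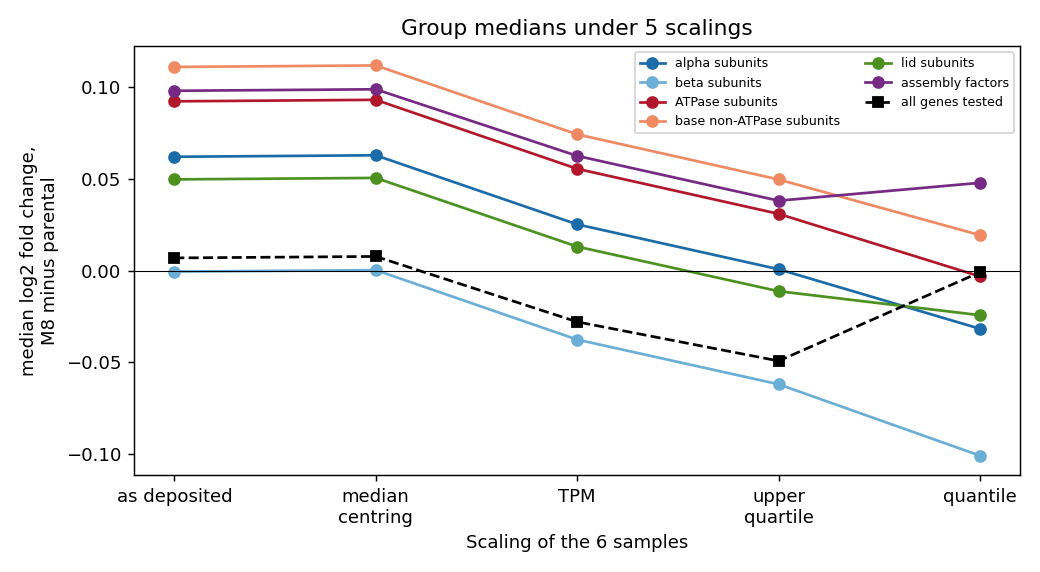
Median log2 fold change, M8 minus parental (vertical axis), of each group of proteasome genes (coloured) and of all genes tested (black squares) under the values as deposited and 4 other scalings (horizontal axis). The base non-ATPase and assembly factor medians stay above 0 throughout, whereas the alpha, ATPase and lid medians fall below 0 with quantile normalization and the lid median also with upper-quartile scaling.

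Some values are less certain because other annotated genes overlap them. Psmd10 overlaps the protein-coding gene Atg4a (means of 9.60 FPKM, parental, and 9.35 FPKM, M8) and Psma3 the noncoding gene 3110056K07Rik (means of 2.89 and 4.46 FPKM), whose mean was higher in M8, as was that of Psma3. Its part in the value of Psma3 was not tested. Psma4 and Psmd1 overlap AY074887 and Htr2b, which stayed at or below 0.852 FPKM, and pseudogenes overlap Psma6 and Psmd13. A pseudogene copy, Psma5-ps, is named after Psma5. Small RNA genes overlap Psmc5, Psmd1 and Psmb5. Among the other pathway genes named, protein-coding genes overlap Psme1, Psme4, Rps27a, Ddi2 and Ngly1, and pseudogene copies are named after Psmb5, Psmb6, Psmb7 and Rps27a. How reads shared with these genes were assigned is not given in the sources used here.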

How the data were processed

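The deposited files hold FPKM values for 6 samples, made by the authors from single-read, stranded mRNA libraries mapped to mm10 with TopHat and quantified with Cufflinks. The submitters' processing notes list TopHat2 2.1.1, Bowtie2 2.2.8, SAMtools 0.1.18 and Cuffdiff 2.2.1. The gene annotation and any filter are not given in the sources used here. FPKM corrects for transcript length and mapped fragments, so a few very abundant RNAs in 1 sample lower the values of all others. The test in the study used read counts, which were not used here. Lines and replicate numbers were taken from the sample titles. The study describes biological replicates, without stating whether they were separate cultures, so p-values measure the spread between these samples.

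Differences were fitted with limma 3.58.1 in R 4.3.3 (lmFit, eBayes with a mean-variance trend, no covariates) on log2(FPKM + 1). This was run on 10597 genes whose mean reached 1 FPKM, with Benjamini-Hochberg adjustment across all of them and a threshold of 0.1. The fit was checked on a table with known answers. All 35 genes were named, values per replicate being given for those past the threshold and those that changed most in each group; among the other pathway genes, catalytic and immunoproteasome subunits, transcription genes and those past the threshold were named, except 1 that is not reported here. Of the 41 other genes, 40 matched a symbol or synonym. The genes and lists were chosen with earlier results of these data known. Relative depth was read from the most frequent ratio between samples of the FPKM of low genes. As alternatives, the pseudocount was set to 0.1 or 0.5, the filter was dropped or raised to 5 FPKM, samples were median centred, rescaled to TPM, quantile normalized or upper-quartile scaled, the trend was dropped, the threshold was set to 0.05, the replicate number was a block, and 1 replicate at a time was omitted. Tables were handled in Python 3.11.15 with pandas 2.3.3, and figures drawn with matplotlib 3.10.9.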

Additional observations from a re-analysis of the deposited data

How the results depend on the processing

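Across 17 alternatives for each of 58 named genes, 832 of 986 results kept their direction and their side of the threshold, 94 lost and 6 gained a call, and 54 changed sign, all of these in genes that did not pass. Of the 12 higher genes, 5 passed in all 6 fits with 1 replicate left out and 3 under all 4 scalings, and of the 3 lower genes 0 and 3; 3 lower genes had an unadjusted p below 0.05 in limma. The higher genes numbered 3 with quantile normalization, 6 with upper-quartile scaling and 7 to 13 with a replicate left out, and the lower genes (Psmb1, Psmd14 and Psmg2 in the values as deposited) 0 at an adjusted p below 0.05, 1 without a trend, 1 with the replicate block and 0 to 1 with a replicate left out. Of the other pathway genes, 8 were lower with upper-quartile scaling. The medians of log2 fold change were 0.025 (all 35), 0.025 (alpha), -0.038 (beta), 0.074 (base non-ATPase), 0.062 (assembly factors) with TPM, -0.030 (all 35), -0.032 (alpha), -0.10 (beta), -0.00320 (ATPase), 0.019 (base non-ATPase), -0.024 (lid), 0.048 (assembly factors) with quantile normalization and 0.000715 (all 35), 0.000715 (alpha), -0.062 (beta), 0.031 (ATPase), 0.050 (base non-ATPase), -0.011 (lid), 0.038 (assembly factors) with upper-quartile scaling. With a replicate left out, the medians ran from 0.048 to 0.10 (alpha), from -0.042 to 0.020 (beta), and from 0.038 to 0.085 (lid). Log2 fold changes that changed sign were -0.060 (Psma1), -0.032 (Psma5), -0.085 (Psma6), -0.060 (Psma7), -0.10 (Psmb3), -0.019 (Psmb4), -0.036 (Psmc1), -0.036 (Psmc5), -0.030 (Psmc6), -0.033 (Psmd4), -0.056 (Adrm1), -0.044 (Psmd3), -0.030 (Psmd11), -0.019 (Psmd12), -0.037 (Psmd10), -0.091 (Psmb6), -0.046 (Psmb7), -0.025 (Nfe2l2) with quantile normalization, -0.019 (Psma1), -0.041 (Psma6), -0.00251 (Psma7), -0.057 (Psmb3), -0.00363 (Psmc1), -0.012 (Psmc5), -0.0079 (Psmc6), -0.012 (Adrm1), -0.021 (Psmd3), -0.021 (Psmd11), -0.00187 (Psmd12), -0.059 (Psmd10), -0.055 (Psmb6), -0.00193 (Psmb7), -0.00268 (Psmb9) with upper-quartile scaling and -0.016 (Psma6), -0.032 (Psmb3), -0.036 (Psmd10), -0.030 (Psmb6) with TPM. With a replicate left out they ranged from -0.018 to 0.045 (Psma6), from -0.058 to 0.032 (Psmb2), from -0.026 to 0.031 (Psmb3), from -0.00196 to 0.10 (Psmc5), from -0.082 to 0.047 (Psmd8), from -0.065 to 0.053 (Psmd10), from -0.040 to 0.057 (Psmb6), from -0.032 to 0.19 (Psmb9). The cause was not tested. Same-numbered replicates of the lines did not deviate together (correlations of 0.10, -0.106 and -0.0326 across genes), and not every replicate correlated best with its own number. These values show no pairing by number, but so few replicates cannot show that there is none. With the replicate block, 12 genes were higher and 1 was lower, Psmb1 (limma adjusted p = 0.157) and Psmd14 (limma adjusted p = 0.139) losing their calls. The files used here give no counts, so counting error is not given, and calls rest on the spread between replicates, whose median coefficient of variation over the 35 genes was 3.73% in parental cells and 2.76% in M8.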
